A study of Mus musculus with 28 samples.

Results

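Peripheral neural stem cells (pNSCs) from the tail and from the dorsal root ganglia (DRG) of 1 mouse line were compared by RNA sequencing, 3 libraries of each, 6 of the 28 libraries of the series. The members were chosen by their titles alone, as every library titled Wnt1Cre-mTmG Tail pNSCs or Wnt1Cre-mTmG DRG pNSCs. Both groups came from Wnt1-Cre; R26-mTmG mice at postnatal day 1 to 5. The sample labels give the strain as C57BL/6, whereas the methods of the study describe transgenic mice bred in-house with wild-type mice of a CD1 or mixed CD1 and C3H background. In these mice Cre under the Wnt1 promoter switches cells of the neural crest and their offspring from membrane Tomato to membrane GFP, and the midbrain also carries the Wnt1 lineage label. The study describes plating all cells of the tissue without sorting in NSC medium with EGF and bFGF. The lines grown out were Tomato+/GFP-, so that neither group carries the lineage label. It also derived pNSCs from sorted GFP- cells, and the sources used here do not say which route gave the sequenced lines. No low-pH treatment is described for them. Lines were derived from mice of either sex at random, and the sources used here do not say how many animals or clones gave the libraries of a group. The brain NSCs of the same mice and the neural crest stem cells (NCSCs) from adult DRG of wild-type mice, sequenced in the same experiment, are given below where they place a value, with 3 libraries each.

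Neural stem cells are dividing, undifferentiated cells that renew themselves and give rise to neurons, astrocytes and oligodendrocytes. They keep in culture much of the positional code of the place they come from. Along the body axis this code is written by the Hox genes, 4 clusters of homeobox transcription factors in which low numbers are used towards the head and high numbers towards the tail, and across the neural tube it is written by Pax, Zic, Irx and Nkx factors that respond to Wnt and BMP from the dorsal side and to Sonic hedgehog from the ventral side.

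Totals were 19648349 to 22548268 counts in the tail libraries and 9808246 to 11431445 in the DRG libraries, so depth ran with the group. With the tail counts thinned to the DRG depth, 2207 genes passed the thresholds below against 2358 without thinning. Mitochondrial genes took 2.87 to 2.88% of the counts in tail and 2.75 to 2.80% in DRG libraries. Squared differences between libraries of a group were 1.09 to 1.41 times what counting alone gives. The study calls the libraries biological replicates, and where they are repeats of 1 culture the p-values measure only the spread between these libraries. Levels are given as cpm, the read counts scaled to a common library size with TMM factors. Differences are log2 fold changes of tail minus DRG pNSCs ± SE with Benjamini-Hochberg adjusted p-values from the quasi-likelihood test of edgeR. A gene was called where the adjusted p was under 0.05 and the log2 fold change at least 1 in size.

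The 2 kinds of pNSC shared most of their expressed genes at like levels, and a large minority differed at least 2-fold. Of 13228 genes tested, 2358 were called (17.8%), of which 1346 were higher in tail pNSCs (10.2% of those tested) and 1012 higher in DRG pNSCs (7.65%). The median log2 fold change over all tested genes was 0.00472, beside which the medians of the gene groups below can be read. By the adjusted p alone, at any size of difference, 10217 passed (77.2%), 5148 of them higher in tail pNSCs. How many of all tested genes have no overlap between the libraries of the groups was not counted. A lack of overlap given below therefore describes a gene and does not set it apart from the rest. Across genes, which are not independent replicates, Pearson's r between the group means of quantile-normalized log2(count + 1) values was 0.911, and between libraries of a group it was 0.994 to 0.996. With the 12 libraries of the experiment normalized together, r was 0.903 between tail and DRG pNSCs, 0.907 between tail pNSCs and brain NSCs, and 0.953 between DRG pNSCs and brain NSCs. Against NCSCs r was 0.769 for tail and 0.750 for DRG pNSCs. These r values used the genes tested in tail and DRG pNSCs, so genes found only in brain NSCs or NCSCs were left out. Brain NSC libraries had 9846360 to 11315870 counts, like DRG libraries, and NCSC libraries 17051461 to 21970406, nearer to tail libraries. The part of depth in these r values was not tested. Of the 1346 genes higher in tail pNSCs, 954 (70.9%) had a level in brain NSCs that lay nearer to DRG than to tail pNSCs, and of the 1012 genes higher in DRG pNSCs the same held for 772 (76.3%). The same share was not counted over all tested genes, so these shares describe the called genes and do not set them apart from the rest.

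**Figure D1:**
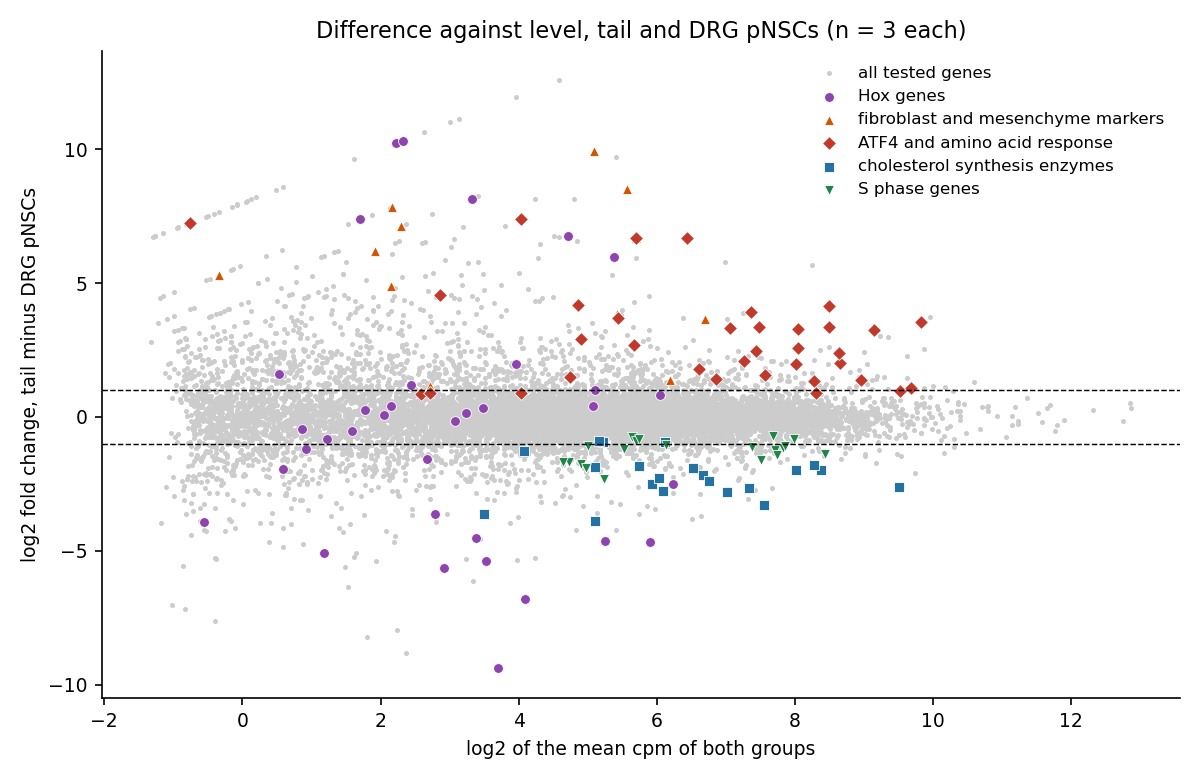
Log2 fold change of tail minus DRG pNSCs (3 libraries each) against the log2 of the mean cpm of both groups for the 13228 tested genes, with 5 gene groups marked and dashed lines at a log2 fold change of 1 and -1. Hox genes lie at both edges, mesenchyme markers and the ATF4 and amino acid response lie above the upper line for 12 of 12 and 30 of 35 genes, and cholesterol synthesis enzymes and S phase genes lie below the lower line for 18 of 21 and 15 of 20; the height of genes with no count in 1 group depends on the prior count of the fit.

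Both groups had the markers of neural stem cells. The summed level of 8 such markers was 7784 to 7848 cpm in tail pNSCs, 7225 to 7293 in DRG pNSCs and 7258 to 7309 in brain NSCs, against 1466 to 1854 in NCSCs. Fabp7, whose levels are given below, is among the 8 and gave a large part of both pNSC sums. Like sums therefore do not mean like levels of each marker. Sox1, a transcription factor of the early neural plate and of NSCs, had 85.0, 85.9 and 90.8 cpm in the 3 tail libraries and 22.998, 19.9 and 20.8 in the 3 DRG libraries. Sox1 was higher in every tail library than in any DRG library, by 2.01 ± 0.0525 (adjusted p 3.95e-97). Sox2, which keeps NSCs undifferentiated, had 685, 675 and 686 cpm in tail and 209, 208 and 205 in DRG libraries, a difference of 1.70 ± 0.0216 (5.95e-159). Pax6, a factor of radial glia, was also higher in tail pNSCs, at 69.8 ± 1.30 against 32.3 ± 2.32 cpm (SD, n = 3; 1.09 ± 0.0492, 1.98e-56). Olig2, a factor of ventral progenitors and the oligodendrocyte lineage, and Nes, which encodes the intermediate filament nestin, had lower levels in tail than in DRG pNSCs but stayed under the limit on the fold, at -0.51 ± 0.0161 and -0.84 ± 0.0157. The long transcripts Sox1ot and Sox2ot overlap Sox1 and Sox2 on the same strand, so their reads can be shared or lost in the counting.

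Of 23 genes known for their part in NSCs, 11 were higher in tail pNSCs, none was lower past the limit, and the median was 1.00. Besides Sox1 and Sox2 they included Sox21 (1.84 ± 0.0324), a close relative of Sox2, Msi1 (1.10 ± 0.0412), an RNA-binding protein of stem cells, and Prom1 (3.14 ± 0.145), the surface protein CD133. Id4, an inhibitor of bHLH factors, was also higher, at 22.9 ± 0.471 against 3.20 ± 0.222 cpm (2.81 ± 0.113). Fabp7, the lipid-binding protein of radial glia, had 2841 to 2889 cpm in tail and 3198 to 3224 in DRG pNSCs, a difference of -0.19 that was within the limit on the fold. The stem cell genes with a difference past the limit were thus all higher in tail pNSCs.

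Sox10, Ngfr, Foxd3 and Cdh19, which mark neural crest and its glia, were far lower in both groups than in NCSCs. The 14 crest and Schwann cell markers summed to 3020 to 3067 cpm in tail pNSCs, 3537 to 3563 in DRG pNSCs, 3047 to 3059 in brain NSCs and 5517 to 5988 in NCSCs, and most of the sum in both pNSC groups was Fabp7, which radial glia use too. Sox10, the factor of neural crest and its glia, had 6.82, 7.68 and 7.31 cpm in tail and 0.338, 0.785 and 0.957 in DRG libraries (3.39 ± 0.223, 4.25e-35), while NCSCs had a mean of 799 cpm and brain NSCs 14.4. Ngfr, the neurotrophin receptor p75, had 3.58 ± 0.130 against 0.849 ± 0.319 cpm (2.02 ± 0.250, 1.17e-13) and 1217 cpm in NCSCs. Foxd3, an early neural crest factor, had 2, 2 and 0 counts in tail and 0, 0 and 1 in DRG libraries and was not tested. Of the 8 crest and Schwann cell markers tested, Sox10 and Ngfr were higher in tail, Cdh19 and Gap43 were higher in DRG pNSCs, and 4 did not pass. Cdh19, a cadherin of Schwann cell precursors, had 0.277 ± 0.109 cpm in tail, 5.02 ± 0.0675 in DRG pNSCs and 950 in NCSCs. Gap43, a growth cone protein, had 48.0 ± 1.00 against 241 ± 1.63 cpm (-2.35 ± 0.0320, 3.40e-153), and brain NSCs had 266. Ets1, Egr2, Pmp22 and Fabp7 were the ones that did not pass.

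Called Hox genes lay on both sides of the comparison. Of 39 genes 35 were tested and 24 called, 10 higher in tail and 14 higher in DRG pNSCs, with a median of -0.15. Tail pNSCs had Hoxa11, Hoxa13, Hoxb13, Hoxd10 and Hoxd11, genes of the lumbosacral and caudal body, which had no count or under 1 cpm in every DRG library. DRG pNSCs had higher levels of Hoxa2, Hoxa3, Hoxa5, Hoxa6, Hoxa7 and Hoxa9, and of the 8 HoxC genes from Hoxc4 to Hoxc12, most of which are used from the neck to the trunk. Hoxa4 stayed within the limit. The genes Hoxb1, Hoxd1, Hoxd12 and Hoxd13 were too low to be tested.

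Hoxd11 (GRCm38 chromosome 2, 74679557 to 74687016, plus strand) had 9.56, 10.1 and 10.3 cpm in the tail libraries and no count in any DRG library, which makes it at least 35.9-fold higher in tail pNSCs, taking 3 counts per library as the upper limit of a count of 0. Hoxa13 (chromosome 6, 52257694 to 52260880, minus strand), the last gene of its cluster, had 10.1, 7.96 and 9.90 cpm in tail libraries and likewise no count in DRG libraries, at least 33.5-fold. Hoxd10, next to Hoxd11 at 74691924 to 74695105 of chromosome 2, had 434, 436 and 396 counts against 0, 2 and 0, a ratio of 322 with a 95% counting interval of 89.0 to 2664. These were on in 3 of 3 tail libraries and off or at 2 counts in the DRG libraries. Hoxb13 (chromosome 11, 96194316 to 96197447, plus strand) had 50.4, 51.8 and 53.8 cpm in tail and 0.507, 0.196 and 0.670 in DRG libraries (6.77 ± 0.139, 6.76e-117). Hoxb9 (chromosome 11, 96271457 to 96276595, plus strand) had 82.1, 82.0 and 82.1 cpm against 1.61, 0.981 and 1.24 (5.96 ± 0.0998, 9.05e-135). The rest of HoxB did not follow them: Hoxb2 to Hoxb8, the 7 genes between head and trunk in that cluster, all stayed within the limit, at -0.52 to 0.81, with Hoxb8 at 84.3 ± 1.83 against 47.5 ± 2.02 cpm. Hoxa11 had 6.51 ± 0.142 cpm against 1 count in all DRG libraries together, and its antisense transcript Hoxa11os, which overlaps it on the opposite strand, had 6.16 ± 0.279 cpm against no count (at least 22.1-fold). Whether strand was used in the counting is not given in the sources used here, so the reads of this pair, and of the other antisense pairs below, cannot be told apart.

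The differences towards DRG pNSCs lay in the HoxC cluster and in HoxA up to Hoxa9. Hoxc8 (chromosome 15, 102990607 to 102994111, plus strand) had 1, 0 and 1 counts in tail and 289, 277 and 272 in DRG libraries, a ratio of 823 in favour of DRG pNSCs with a 95% counting interval of 227 to 6807. Hoxa6 (chromosome 6, 52206288 to 52208722, minus strand) had 0.398, 0.186 and 0.305 cpm in tail and 32.4, 36.3 and 32.5 in DRG libraries (-6.80 ± 0.150, 4.35e-111). Hoxa5, its neighbour at 52201754 to 52204587, had 4.59 ± 0.272 against 115 ± 3.24 cpm (-4.66 ± 0.0619, 2.84e-155). No tail library reached the level of any DRG library in these genes. Hoxa7 was at -4.61 ± 0.0775, Hoxc6 at -5.63 ± 0.194, Hoxc9 at -5.37 ± 0.153 and Hoxc10 at -4.52 ± 0.142. Hoxa9 differed less, with 22.9 ± 0.909 against 128 ± 2.10 cpm (-2.50 ± 0.0433, 8.82e-132). Hoxc11 and Hoxc12, which lie at the caudal end of HoxC, were also higher in DRG pNSCs, at -1.19 ± 0.238 and -1.95 ± 0.279, although neither group passed 3.06 cpm in any library, and Hoxc13 did not pass (-0.47 ± 0.239, 0.0661). In the annotation Hoxc5 spans Hoxc6, Hoxc8, Hoxc9 and Hoxc10 on the same strand, and Hoxa3 spans Hoxa4, Hoxa5 and Hoxa6, so their reads can be shared or lost in the counting.

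HoxA thus changed its direction along the cluster, with the called genes higher in DRG pNSCs up to Hoxa9 and higher in tail pNSCs from Hoxa10 on. Hoxa10, at the turn, had 44.7, 47.0 and 47.7 cpm in tail and 23.1, 24.03 and 20.9 in DRG libraries (1.01 ± 0.0586), just inside the limit, and was just under it without tail replicate 3 (0.998) or DRG replicate 3 (0.962). In HoxD every called gene was higher in tail pNSCs: Hoxd3 (1.60 ± 0.296), Hoxd4 (1.18 ± 0.146), which overlaps Hoxd3, and Hoxd9 (1.98 ± 0.0935), beside Hoxd10 and Hoxd11. Hoxd8 had 39.1 ± 0.709 against 28.6 ± 1.10 cpm, under the limit. Of 9 transcripts that run antisense or between the Hox genes, Hoxa11os, Hoxb5os (1.62 ± 0.292) and Haglr (2.31 ± 0.334) were higher in tail and Hoxaas2 (-1.43 ± 0.193) and Hoxaas3 (-1.74 ± 0.214) higher in DRG pNSCs. On the opposite strand Haglr overlaps Hoxd3, Hoxb5os overlaps Hoxb5 and Hoxb6, Hoxaas2 overlaps Hoxa3, and Hoxaas3 overlaps Hoxa3 to Hoxa7, so that the differences of these transcripts cannot be told apart from those of the genes they overlap. Of 9 Meis, Pbx and Pknox genes, whose products bind DNA with Hox proteins, 1 was higher in tail pNSCs, a share near the 10.2% of all tested genes, and 8 did not pass, with a median of 0.37. Brain NSCs of the same mice had no count or under 1 cpm of every Hox gene named in these paragraphs, up to 0.895 cpm of Hoxa5.

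**Figure D2:**
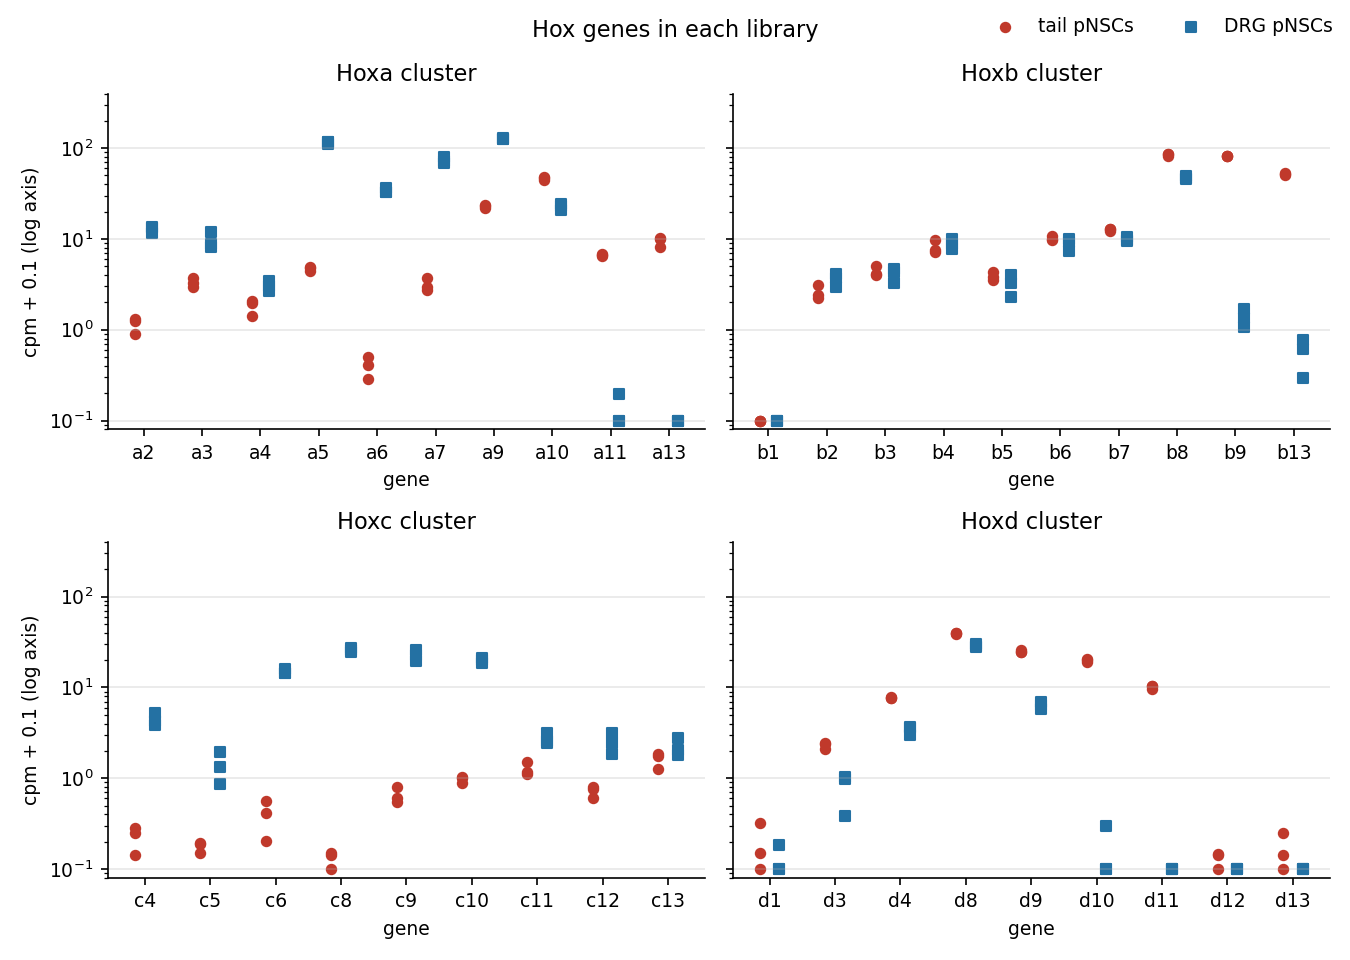
Level of Hox genes in each library, as cpm + 0.1 on a log axis, in 4 panels for the HoxA, HoxB, HoxC and HoxD clusters, with circles for the 3 tail and squares for the 3 DRG libraries. Tail pNSCs are above DRG pNSCs at Hoxa10 to Hoxa13, Hoxb9, Hoxb13 and Hoxd9 to Hoxd11, DRG pNSCs are above tail pNSCs at Hoxa5 to Hoxa9 and Hoxc4 to Hoxc12, and Hoxb2 to Hoxb8 lie close together.

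The factors that pattern the neural tube from its dorsal to its ventral side were split as well. All 6 tested dorsal factors were called, 3 in each direction. Pax3, a factor of dorsal progenitors and of the early neural crest, had 0, 2 and 0 counts in tail and 128, 86 and 94 in DRG libraries, a ratio of 302 with a counting interval of 83.0 to 2509. Pax7, its close relative, had 1, 0 and 0 counts against 80, 80 and 65, a ratio of 442 (78.5 to 17532). Both were on in every DRG library and at or under 2 counts in every tail library. Msx1, a target of BMP in the roof of the neural tube, was also higher in DRG pNSCs (-2.32 ± 0.115). The zinc finger genes Zic2 and Zic5, which are likewise dorsal, went the other way, with 25.0 ± 0.943 against 1.80 ± 0.322 cpm of Zic2 (3.76 ± 0.127, 1.42e-76), and Zic5 at 3.05 ± 0.190. Dorsal factors were therefore not higher in either group as a set.

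Among 7 tested factors of the intermediate neural tube, Pax6 and Sp8 were higher in tail and Irx3, Irx5 and Sp9 higher in DRG pNSCs. Sp8, a zinc finger factor of progenitors and of the limb bud ridge (chromosome 12, 118846329 to 118852576), had 47.6, 46.9 and 48.8 cpm in the tail libraries and no count in the DRG libraries, at least 172-fold higher, while brain NSCs had 0.450 cpm. Irx3 had 2.48 ± 0.316 against 20.9 ± 3.17 cpm (-3.08 ± 0.115) and Irx5, its neighbour in the genome, 1.79 ± 0.478 against 27.6 ± 2.21 (-3.96 ± 0.114). On the ventral side 3 of 7 were higher in tail and Nkx2-2 was higher in DRG pNSCs. Nkx6-1, a factor of motor neuron progenitors, had 90.1, 92.0 and 92.5 cpm in tail and 8.88, 9.41 and 8.33 in DRG libraries (3.34 ± 0.0637, 1.21e-123), and 0.567 in brain NSCs. Neurog2, which drives neuron formation, was higher in tail at 4.14 ± 0.246 against 0.149 ± 0.0905 cpm, and Nkx2-2 had 14.3 ± 1.59 against 31.8 ± 1.65 cpm (-1.17 ± 0.0695). Foxb1, a forkhead gene of the caudal midline and diencephalon, stood among the largest differences with 54.0, 56.7 and 55.2 cpm in tail and 5, 1 and 0 counts in DRG libraries (8.14 ± 0.161, 2.45e-120). Of 5 tested forebrain and midbrain genes Gbx2 was higher in tail (1.98 ± 0.171) and Lhx2 and En2 higher in DRG pNSCs (-2.79 ± 0.104 and -1.54 ± 0.326), and DRG pNSCs had 22.5 ± 1.40 cpm of Lhx2 where brain NSCs had 63.6.

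Retinoic acid is a signal that sets trunk Hox genes. Of 11 tested genes of its pathway 5 were called, all higher in tail, with a median of 0.87, and 6 did not pass, among them the receptors Rarg, Rxra and Rxrb (0.71, 0.58 and 0.10). Crabp1, which binds retinoic acid in the cytoplasm, had 11.3, 9.45 and 9.95 cpm in tail libraries and 1, 1 and 0 counts in DRG libraries, a ratio of 166 (45.9 to 1378). Stra6, which takes retinol into the cell, had 1.51 ± 0.0842 cpm and no count, and the receptor Rara had 33.4 ± 1.81 against 5.75 ± 0.743 cpm (2.51 ± 0.0900). Rarb, another receptor, was at 2.38 ± 0.221, and Aldh1a1 and Aldh1a3, which make retinoic acid, did not pass (0.36 and -0.43). The count was 8 without DRG replicate 2 and without DRG replicate 3. Of 4 tested genes that guide caudal and axial progenitors, Isl1 and the T-box gene T were higher in tail, Isl1 with 25, 17 and 24 counts against none, and Cdx1 and Cdx2, the caudal homeobox genes, had no count in any of the 6 libraries.

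Through Notch signalling neighbouring cells keep each other undifferentiated. The RNA of its genes was higher in tail pNSCs wherever it passed the limit, and signalling itself was not measured. Of 26 tested genes 11 were higher in tail and none in DRG pNSCs, with a median of 0.96. The ligand Jag1 had 64.3 ± 3.02 against 17.4 ± 0.362 cpm (1.87 ± 0.0587). Dlk1, also on the list, had 15.01 ± 0.764 against 2.34 ± 0.0731 (2.66 ± 0.136). Of the receptors, Notch1 had 855, 851 and 842 cpm in tail and 305, 305 and 317 in DRG libraries (1.44 ± 0.0198, 5.56e-152), Notch2 was at 1.42 ± 0.0318 and Notch3 at 2.10 ± 0.0293, while Notch4 did not pass (-0.22). All tail libraries were above all DRG libraries for Notch1, Notch2 and Notch3. Of the targets, Hes1 (1.24 ± 0.0441) and Heyl (3.33 ± 0.336) passed, and Hes5 had 46.0 ± 1.73 against 22.7 ± 0.520 cpm, at the limit without passing it. Rbpj, the DNA-binding partner of the cleaved receptor, was at 0.52 ± 0.0518.

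Sonic hedgehog genes also lay mostly on the tail side, with 8 of 17 higher in tail, 1 higher in DRG pNSCs and a median of 0.84. Gli2, the activator of hedgehog targets, had 26.7, 23.9 and 29.0 cpm in tail and 1.52, 1.27 and 2.11 in DRG libraries (3.99 ± 0.131, 6.56e-79). Ptch1, receptor and target of the pathway, had 376 ± 5.76 against 178 ± 4.80 cpm (1.06 ± 0.0242), and Hhip, which binds the ligand, 14.8 ± 0.850 against 2.70 ± 0.239 (2.43 ± 0.132). The ligand Shh itself and the target Gli1 were low, at 0.949 ± 0.299 and 1.36 ± 0.110 cpm in tail against at most 2 counts in a DRG library. Smo and Sufu, the transducer and the brake of the pathway, did not pass (0.15 and 0.36).

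Of 34 Wnt pathway genes 11 were higher in tail and Rnf43 alone was higher in DRG pNSCs (median 0.46). Apcdd1, a membrane inhibitor of Wnt, had 283, 279 and 291 cpm in tail and 17.8, 21.5 and 17.9 in DRG libraries (3.88 ± 0.0420, 1.04e-173), and Dkk3, a secreted relative of Wnt inhibitors, had 13.4 ± 0.654 cpm against 2 counts in all DRG libraries together, a ratio of 217 (59.8 to 1792). Rnf43, a ligase that removes Wnt receptors, had 1, 2 and 3 counts in tail against 35, 26 and 21. Axin2, the standard target of canonical Wnt signalling, had 53.1 ± 0.452 and 54.9 ± 3.74 cpm (-0.07 ± 0.0454, 0.177), so that its levels overlapped between the groups. In the BMP and TGF-beta pathway 12 of 41 genes were higher in tail and Chrdl1 and Fst higher in DRG pNSCs (median 0.35). The feedback inhibitors Smad6 (135, 99 and 110 counts against 3, 1 and 0, a ratio of 43.8 with an interval of 16.9 to 162) and Smad7 (6.73 ± 0.275 against 1.24 ± 0.264 cpm, 2.42 ± 0.195) and the antagonist Nog (8.62 ± 0.321 against 1.54 ± 0.117 cpm, 2.46 ± 0.173) were among the higher ones. Bmp4 had 16 to 21 counts a library in tail and none in DRG pNSCs.

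Matrix and mesenchyme genes were higher on the tail side in most of their members. Of 32 tested collagen genes 19 were higher in tail and Col9a1, Col9a3 and Col11a1 higher in DRG pNSCs, with a median of 2.02. Col1a2, a chain of the fibrillar collagen of connective tissue, had 67.2, 69.2 and 67.3 cpm in tail and 0, 0 and 2 counts in DRG libraries, a ratio of 1102 (305 to 9105). Col1a1, its partner chain, had 106, 103 and 99.4 cpm against 1.10, 0.490 and 1.34 (6.67 ± 0.100, 2.05e-144). Col6a3 had 84.7 ± 1.27 cpm against 3 counts in all, a ratio of 917 (314 to 4447), and Col15a1 had 37.6 ± 0.888 against 0.125 ± 0.0615 cpm. No DRG library came near a tail library in these genes. Postn, a matrix protein of fibroblasts, had 95.1 ± 0.752 against 0.248 ± 0.245 cpm (8.53 ± 0.130), Bgn, a small proteoglycan, 21.2 ± 0.819 cpm against 2 counts in all, and Dsc2, a desmosomal cadherin, 17.7 ± 0.847 cpm against none (at least 63.5-fold).

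The 12 tested fibroblast and mesenchyme markers were all higher in tail pNSCs, with a median of 5.76, while Tcf21 had no count and Twist2 was too low to be tested. Pdgfrb, a receptor of mesenchymal and mural cells, had 203, 193 and 173 counts in tail against 0, 1 and 0 in DRG libraries, and Prrx1, a mesenchyme transcription factor, had 80.4 ± 2.64 against 5.51 ± 1.01 cpm (3.84 ± 0.0742). The summed level of the list was 681 to 696 cpm in tail pNSCs, 63.9 to 68.8 in DRG pNSCs, 92.0 to 96.7 in brain NSCs and 7565 to 7625 in NCSCs, and 75258 to 76701 cpm in the samples labelled Tail of another experiment. The Tail-pNSC libraries of the other experiment had 123 to 129 cpm. In the tail pNSCs of this experiment the list thus stood above DRG pNSCs and far under the Tail samples. Col1a2 alone had 27114 cpm in the Tail samples. In bulk libraries fewer cells of a type and less RNA per cell cannot be told apart, and what part other cells have in these levels was not tested. Of 10 muscle markers 2 were tested, and both were higher in tail, Acta2 at 42.2 ± 0.942 against 7.44 ± 0.379 cpm (2.48 ± 0.0792) and Myh11 at 3.94 ± 0.166. The other muscle markers were too low to be tested. The 10 summed to 58.8 to 60.2 cpm in tail and 9.02 to 9.30 in DRG pNSCs. The markers of blood, vessel and epithelium stayed near 0: sums were 1.02 to 1.44 and 2.94 to 3.04 cpm for 10 leukocyte genes, 4.25 to 4.77 and 2.84 to 3.80 for 8 endothelial genes, and 10.3 to 11.0 and 10.1 to 10.8 for 10 epithelial genes, in tail and DRG pNSCs in turn.

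Imprinted genes, of which a cell uses the copy of 1 parent, held several of the widest gaps. Of 28 tested, 9 were higher in tail, Nespas was higher in DRG pNSCs (6 to 18 counts a library), and 18 did not pass (median 0.47). Grb10, an adaptor that restrains insulin and IGF signalling, had 593, 606 and 594 cpm in tail and 11.2, 11.6 and 12.3 in DRG libraries (5.66 ± 0.0398, 8.07e-213). H19 (chromosome 7, 142575529 to 142578143), a non-coding RNA that restrains growth, had 45.3 ± 0.293 against 0.407 ± 0.161 cpm (6.77 ± 0.148, 6.27e-112). Its neighbour Igf2, a growth factor used from the other parent's copy, had 28, 49 and 37 counts against none (at least 6.46-fold). Grb10, H19 and Igf2 were thus separated in every library, and H19 and Igf2, which are normally used from opposite copies, were both on the tail side. Meg3 and Rian, non-coding RNAs of 1 imprinted cluster on chromosome 12, had 5.76 ± 0.820 and 4.49 ± 0.646 cpm in tail and at most 1 count in any DRG library, and Dlk1 of the same cluster was named above. Magel2 (chromosome 7, 62377010 to 62381640), a regulator of protein sorting, had 16.4, 16.4 and 15.3 cpm against no count (at least 57.6-fold), whereas Ndn, Mkrn3 and Snrpn of the same region did not pass (0.82, 0.35 and -0.30). Cdkn1c, an imprinted brake of the cell cycle, had 19.1 ± 0.633 against 5.64 ± 1.45 cpm (1.75 ± 0.104). The samples labelled Tail of another experiment had a mean of 3287 cpm of H19 and 522 of Meg3.

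The genes that mark developmental stage also leaned to the tail side, 4 of 13 higher there and Hmga1 higher in DRG pNSCs (-1.16 ± 0.0628). Igf2bp1 (chromosome 11, 95957163 to 96005940), a foetal RNA-binding protein, had 31.0, 31.5 and 31.1 cpm in tail libraries and no count in DRG libraries, at least 112-fold. Igf2bp3 had 85.3 ± 2.68 against 5.30 ± 0.637 cpm (4.00 ± 0.0736) and Igf2bp2 86.4 ± 2.51 against 21.5 ± 3.04 (1.98 ± 0.0530), so that all 3 members of the family were higher in tail pNSCs. Hmga2, a chromatin protein of young stem cells, differed less (66.5 ± 0.408 against 46.8 ± 0.595 cpm, 0.49), and both groups were above the 7.07 cpm of brain NSCs.

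Outside development, the genes that cells switch on when amino acids run short were higher in tail pNSCs almost as a whole. This response runs through the transcription factor ATF4, which raises amino acid transporters, enzymes that make amino acids and the tRNA synthetases. The list of 35 such genes, and those for tRNA synthetases, hypoxia, chaperones, cholesterol and fatty acids below, were drawn up after values of this comparison had been seen, so their counts describe the comparison and do not test it. Of the 35, 30 were higher in tail pNSCs, none was lower past the limit, and the median was 2.59 against 0.00472 over all genes. Chac1, which degrades glutathione, had 171, 172 and 174 cpm in tail and 2.28, 0.981 and 1.63 in DRG libraries (6.67 ± 0.0783, 2.52e-166). Trib3, a feedback inhibitor, had 103 ± 2.09 against 0.968 ± 0.334 cpm (6.67 ± 0.0993), and Nupr1, a stress-induced nuclear protein, 732, 661 and 675 counts against 1, 2 and 3. Asns, which makes asparagine, had 660, 645 and 668 cpm against 61.5, 65.7 and 63.4 (3.35 ± 0.0279, 9.74e-198). The groups did not overlap in any of them.

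Of the transporters, Slc7a5, the carrier of large neutral amino acids, had 1680, 1656 and 1675 cpm in tail and 138, 139 and 145 in DRG libraries (3.55 ± 0.0214, 3.51e-227), and Slc3a2, the chain it pairs with, 1021 ± 18.0 against 106 ± 3.49 (3.25 ± 0.0239). Of the factors, Atf4 itself differed less, at 444 ± 3.39 against 173 ± 1.83 cpm (1.34 ± 0.0236), than Ddit3 (3.70 ± 0.0719), Atf5 (4.16) and Atf3 (4.54 ± 0.194) that act below it. Psat1, Gdf15, Cebpb, Slc1a5 and Slc38a2 had higher levels in tail pNSCs but stayed within the limit, at 0.87 to 0.96. Of 20 cytosolic tRNA synthetases, 12 were higher in tail and none lower past the limit (median 1.24). Lars, which loads leucine, had 650 ± 4.90 against 149 ± 1.28 cpm (2.10 ± 0.0232, 5.57e-172), and Nars, for asparagine, 842 ± 10.7 against 208 ± 1.94 (1.993 ± 0.0212), while Farsa was at -0.57. The summed level of the 35 genes was 12979 to 13177 cpm in tail pNSCs and 2964 to 3005 in DRG pNSCs, 2671 to 2705 in brain NSCs of the same mice and 3045 to 3062 in NCSCs. In the other experiments the sum was at most 8037 cpm, in the Sox2-GFP brain NSCs. The tail pNSCs of this experiment were therefore the highest of the 28 libraries, and the Tail-pNSC libraries of the other experiment had 3709 to 3787 cpm.

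A letter pattern known for ATF4 and C/EBP binding, TGATGNAAN with its reverse NTTNCATCA, was looked for on both strands in the 250 bases before each gene start of the RefSeq promoters (GRCm38.p6). It was found in 3.44% of all 32851 promoters and in 8 of the 37 promoters of the list, which belong to 8 of the 30 genes that had one, and in 3 of the 12 promoters of tRNA synthetases. It was also found in 1 of 19 promoters of the cholesterol enzymes described below, that of Idi1, which was higher in DRG pNSCs, and in 2 of 16 of the sterol uptake and control genes, both of Insig2, which did not pass (0.34). Herpud1, a gene of the chaperone list below that was higher in tail pNSCs, had a match too. The ATF4 list was drawn from genes known for this response, so its share beside that of all promoters is not a test. The windows of 70 bases around the match are shown for 6 of the genes, because ATF4 is known to act through such sequences, with the matching letters in capitals. They lie at chr2:119351017-119351086 on the plus strand for Chac1, chr6:7693210-7693279 on the minus strand for Asns, chr7:126625543-126625612 on the minus strand for Nupr1, chr1:191183406-191183475 on the minus strand for Atf3, chr3:50443641-50443710 on the minus strand for Slc7a11, which imports cystine and has 2 matches, and chr19:27216788-27216857 on the plus strand for Vldlr, a lipoprotein receptor. Slc7a11 had 88.5 ± 1.27 against 13.5 ± 1.88 cpm (2.69 ± 0.0585) and Vldlr 324 ± 6.09 against 31.3 ± 1.35 (3.35 ± 0.0363).
Chac1: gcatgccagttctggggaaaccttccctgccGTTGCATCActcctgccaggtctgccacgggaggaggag
Asns: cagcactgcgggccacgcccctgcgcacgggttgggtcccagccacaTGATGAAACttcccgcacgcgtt
Nupr1: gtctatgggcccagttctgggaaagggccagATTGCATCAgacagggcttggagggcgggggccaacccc
Atf3: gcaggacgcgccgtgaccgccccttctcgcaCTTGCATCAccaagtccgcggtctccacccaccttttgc
Slc7a11: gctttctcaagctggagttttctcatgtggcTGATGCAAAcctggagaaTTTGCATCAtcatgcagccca
Vldlr: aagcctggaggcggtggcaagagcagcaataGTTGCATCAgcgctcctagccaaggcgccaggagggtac
A match is a description of the letters and says nothing on whether the factor was bound in these cells.

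**Figure D3:**
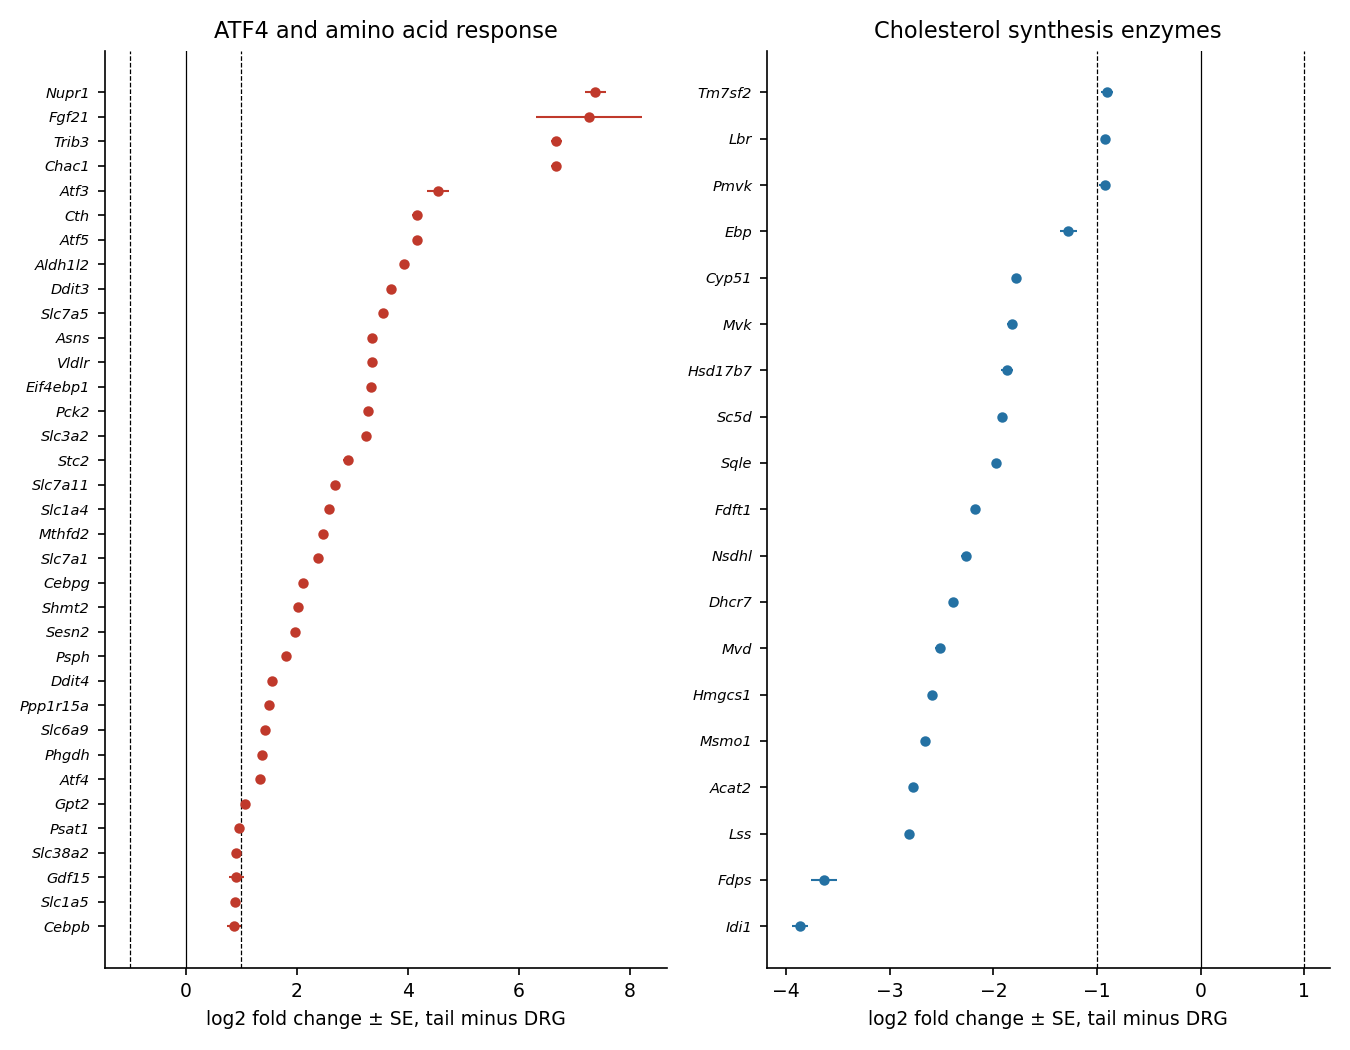
Log2 fold change ± SE of tail minus DRG pNSCs (3 libraries each) for the 35 genes of the ATF4 and amino acid response and 19 cholesterol synthesis enzymes, with dashed lines at 1 and -1. All 35 points of the first group lie right of 0, 30 of them past 1, and all 19 of the second lie left of 0, 16 of them past -1; Fgf21 has no count in DRG pNSCs, and its place depends on the prior count of the fit.

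The chaperones of the endoplasmic reticulum, which the neighbouring stress response to unfolded protein raises, did not go with these genes. Of 19 tested, 4 were higher in DRG pNSCs, Herpud1 alone was higher in tail (67.0, 68.7 and 67.0 against 14.5, 16.2 and 13.9 cpm, 2.17 ± 0.0601), and the median was -0.63. Hspa5, the main chaperone of that compartment, had 282, 275 and 282 cpm in tail and 764, 733 and 769 in DRG libraries (-1.45 ± 0.0196, 6.37e-154). Calr was at -1.24 ± 0.0185 and Sdf2l1 at -2.57 ± 0.0919. Of 17 hypoxia genes 9 were higher in tail and Adm was higher in DRG pNSCs, with a median of 1.56. Vegfa, the vessel growth factor, had 238, 245 and 235 cpm against 18.3, 19.6 and 18.2 (3.66 ± 0.0432, 8.46e-166), Bnip3, a mitophagy receptor, was at 1.76, whereas Pgk1 and Ldha, the enzymes of glycolysis, did not pass (-0.14 and -0.31) and Adm had 5.31 ± 0.659 against 18.7 ± 0.931 cpm (-1.83 ± 0.0990). The hypoxia genes therefore leaned to the tail side, with a positive difference in 12 of the 17, but not in every member.

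Cholesterol synthesis ran the other way, with higher levels in DRG pNSCs for most enzymes. Of 21 enzymes 18 were higher in DRG pNSCs, none was higher in tail past the limit, and the median was -2.17. Hmgcs1, at the entry of the route, had 213, 207 and 207 cpm in tail and 1254, 1250 and 1227 in DRG libraries (-2.59 ± 0.0190, 6.06e-209). Idi1, in the middle, had 3.94, 4.28 and 5.33 cpm in tail and 66.7, 65.9 and 60.8 in DRG libraries (-3.87 ± 0.0735, 9.77e-124), and Fdps, a later step, 1.55, 1.82 and 1.73 against 21.4, 20.4 and 20.6 (-3.63). Pmvk, Tm7sf2 and Lbr were the ones within the limit, at -0.90 to -0.92. Each step that passed was thus lower in tail pNSCs by at least 1.28 on the log2 scale.

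Uptake and control of sterols followed in part. Of 15 genes 4 were higher in DRG pNSCs. Insig1, a sterol sensor and target of SREBP2, had 32.7, 37.1 and 36.0 cpm in tail and 226, 224 and 224 in DRG libraries (-2.70 ± 0.0350). Srebf2, which encodes SREBP2, the factor that drives this route, was at -1.04 ± 0.0205, and Abca1, which exports cholesterol, was the 1 gene higher in tail (1.93 ± 0.0658). Srebf1 (0.13) and Scap (-0.16) did not pass. In fatty acid synthesis 5 of 14 genes were higher in DRG pNSCs, among them Fasn with 272 ± 4.06 against 887 ± 30.8 cpm (-1.73 ± 0.0196) and Scd1 (-1.45 ± 0.0219). The summed level of the 21 cholesterol enzymes was 1018 to 1038 cpm in tail pNSCs, 4713 to 4782 in DRG pNSCs, 4138 to 4189 in brain NSCs and 1015 to 1031 in NCSCs. DRG pNSCs were thus near brain NSCs, and the tail pNSCs of this experiment at the level of NCSCs. The Tail-pNSC libraries of the other experiment had 5360 to 5420 cpm, so the low level was not shared by both sets of tail pNSCs. The letters TCACNCCAC (reverse GTGGNGTGA), a core of the sterol response element, occurred in 1.05% of all promoters and in 1 of the 19 promoters of the enzymes. That was Hmgcs1, shown here as the entry enzyme of the route, at chr13:119690183-119690252 on the plus strand, with the match in capitals.
Hmgcs1: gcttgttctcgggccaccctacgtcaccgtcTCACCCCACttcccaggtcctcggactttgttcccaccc

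**Figure D4:**
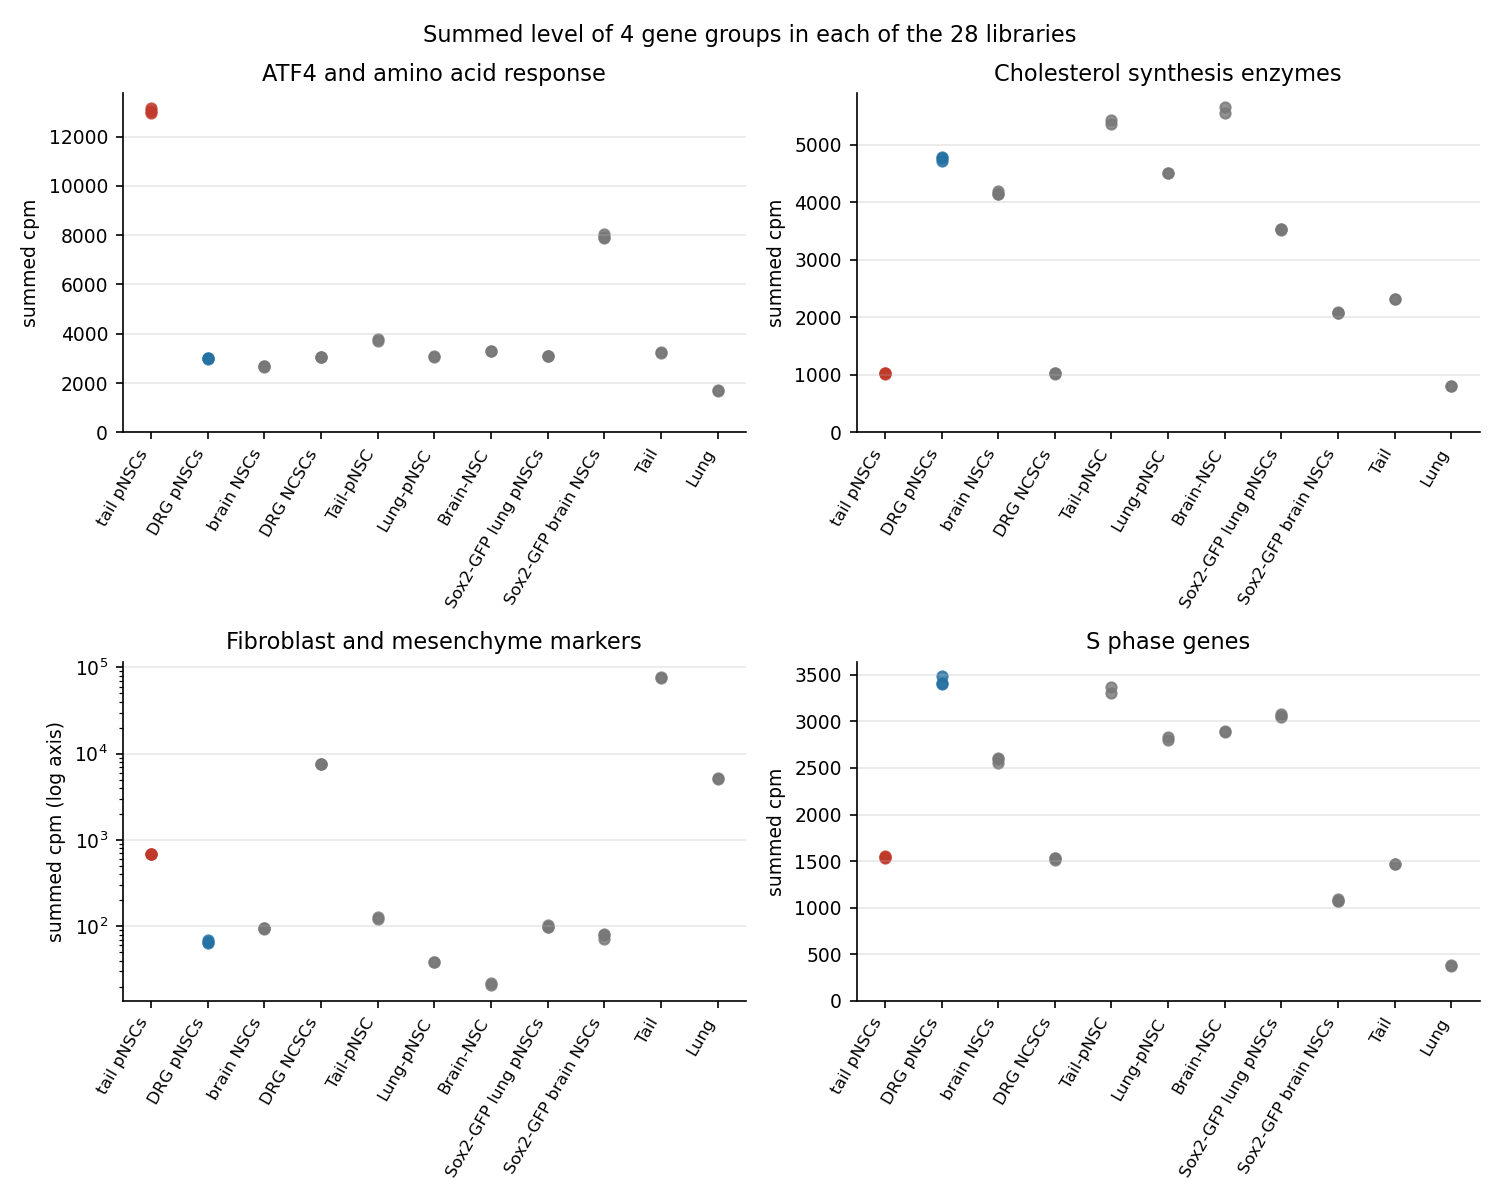
Summed cpm of 4 gene groups in each of the 28 libraries, by group, with tail and DRG pNSCs coloured, a linear axis from 0 in 3 panels and a log axis for fibroblast and mesenchyme markers. Tail pNSCs lie above every other library for the ATF4 and amino acid response (12979 to 13177 cpm) and DRG pNSCs reach 3482 cpm for S phase genes, the highest of the 28 libraries.

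Most S phase genes and some genes of G2 and M phase were higher in DRG pNSCs. Of 20 S phase genes 15 were higher there and none in tail past the limit (median -1.18), and of 20 genes of G2 and M phase 7 were (median -0.89). Mki67, the Ki67 antigen of dividing cells, had 404, 409 and 383 cpm in tail and 1039, 1039 and 984 in DRG libraries (-1.38 ± 0.0185, 4.18e-154). Ccne2, a cyclin that starts S phase, had 12.6 ± 0.365 against 62.3 ± 1.19 cpm (-2.33 ± 0.0586), Pcna, the clamp of the replication fork, 118 ± 0.863 against 311 ± 4.58 (-1.43 ± 0.0255), and Cdk1, the kinase of mitosis, 90.8 ± 0.675 against 223 ± 6.77 (-1.32 ± 0.0289). Ccnb2 was the 1 gene of these 40 with a higher level in tail, at 0.17 ± 0.0462. The S phase sum was 1530 to 1552 cpm in tail, 3405 to 3482 in DRG pNSCs, 2552 to 2605 in brain NSCs and 1514 to 1538 in NCSCs. In the Tail-pNSC libraries of the other experiment it was 3307 to 3374 cpm, near DRG pNSCs. Of 11 inhibitors Cdkn1b (224 ± 3.87 against 109 ± 2.15 cpm, 1.02 ± 0.0289) and Cdkn1c were higher in tail, Cdkn2c was higher in DRG pNSCs (-1.02), and Cdkn1a had 271 ± 2.69 and 279 ± 5.32 cpm (-0.06 ± 0.0230). In the machinery of DNA methylation and Polycomb, 3 of 29 genes passed (10.3%), a smaller share than the 17.8% of all tested genes. Dnmt1 (-1.28 ± 0.0220) and Uhrf1 (-1.91 ± 0.0301), which copy methylation at the replication fork, were higher in DRG pNSCs. Pcgf2, a Polycomb subunit, was higher in tail (1.94 ± 0.0882). Ezh2 and Dnmt3a were among the rest, at -0.36 and 0.62.

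Xist, the RNA that silences an X chromosome in female cells, had 1151, 1207 and 1108 cpm in tail and 142, 146 and 145 in DRG libraries (2.98 ± 0.0230, 1.19e-204), and it overlaps Tsix on the opposite strand (chromosome X, 103460366 to 103483254). The 4 tested Y chromosome genes went the other way, Kdm5d with 22.7 ± 0.865 against 106 ± 6.19 cpm (-2.25 ± 0.0460), Eif2s3y at -2.30 ± 0.0459, Uty at -1.90 ± 0.0629 and Ddx3y at -1.71 ± 0.0423. Their sum was 92.3 ± 1.98 cpm in tail and 372 ± 14.6 in DRG pNSCs. Xist and Y chromosome genes were thus found together in all 6 libraries, and the balance of the 2 ran with the group. The part of this balance in any other difference was not tested. Of the X-linked partners, Ddx3x (0.38) and Kdm6a (0.84) did not pass.

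**Figure D5:**
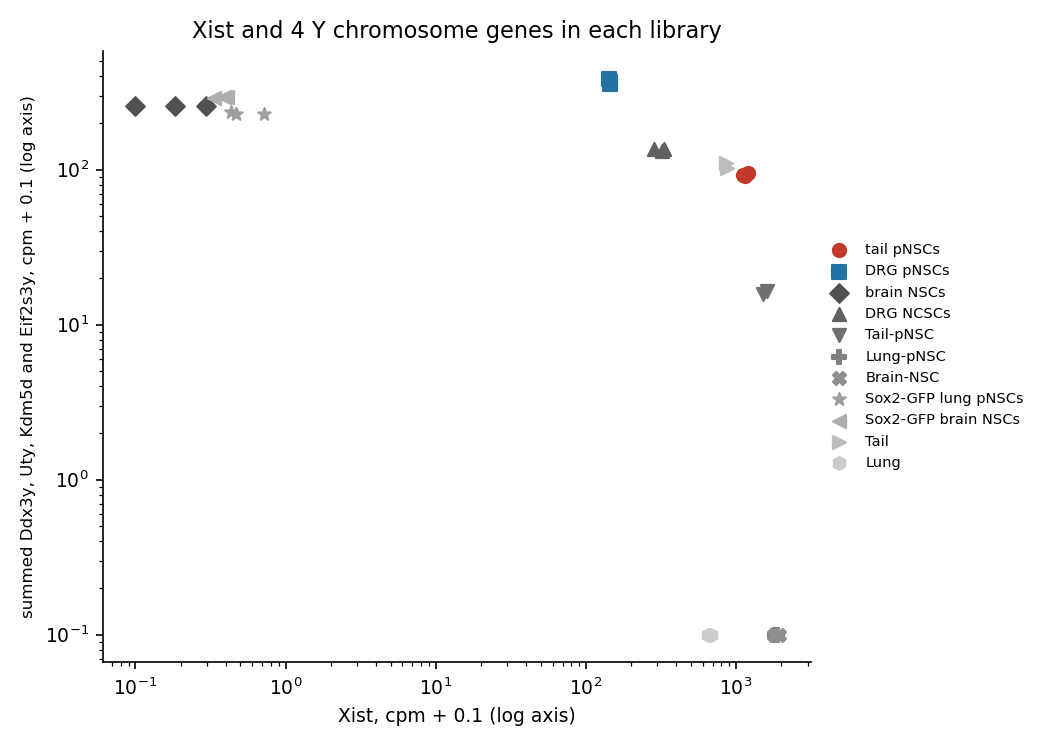
Xist against the summed level of Ddx3y, Uty, Kdm5d and Eif2s3y in each of the 28 libraries, both as cpm + 0.1 on log axes, with tail and DRG pNSCs coloured. The 3 tail libraries lie at 1108 to 1207 cpm of Xist and the 3 DRG libraries at 142 to 146 cpm with the higher Y chromosome sum, and each set of 3 lies close together.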

How the data were processed

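The authors aligned single-end reads of poly(A) RNA to the mouse genome GRCm38 (HISAT2) and deposited raw HTSeq read counts per gene for 28 samples and 28244 genes. The strand setting, counting mode and annotation release are not given in the sources used here. Groups were taken from the sample titles. The 6 tail and DRG libraries were fitted alone with edgeR 4.0.16 (R 4.3.3) by TMM, filterByExpr (minimum count 10, total 15) and the quasi-likelihood test, with Benjamini-Hochberg adjustment over 13228 genes. Levels in cpm were scaled over all 28 samples. A gene without counts in a group was set to 3 counts per library for a bound, and for groups with 1 to 3 counts in a library at most the ratio of sums was given with an exact 95% counting interval, which covers counting error only. The script was tested on simulated data. Replicate numbers do not pair the samples (correlations of deviations 0.00286 to 0.0158). Positions are from GENCODE M21. Genes named are the called Hox genes, marker genes, up to 6 called members of each list and the 12 largest rises and falls with a mean count of at least 100, and further members where a family needed them. The members and lists were chosen with earlier results of these data known. Alternatives (DESeq2 1.42.0, other scalings, filters, fits and each library left out) are given in the closing section. Some genes are not reported here.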

Additional observations from a re-analysis of the deposited data

How the results depend on the processing

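The count of 2358 called genes (1346 higher in tail, 1012 in DRG pNSCs) was 2207 to 2596 with DESeq2 (2342), other scalings, other groups in the fit or thinned tail counts, and 2323 to 2576 with 1 library left out. It was 2956 without a filter, 1284 (755 and 529) at a mean count of at least 100, 10217 (5148 and 5069) without a limit on the fold and 854 (573 and 281) at a log2 fold change of 2. At a mean count of at least 100, fewer list members could be tested, and calls were 13 of Hox genes, 4 of the Sonic hedgehog pathway, 2 of the retinoic acid pathway and 6 of imprinted genes. The retinoic acid list had 8 calls with no filter and with all 4 groups fitted, and 5 to 8 with 1 library left out. Pearson's r of the group means was 0.908 on TMM-scaled log2 counts, 0.969 over every gene with a count and 0.910 to 0.912 with 1 library left out, and Spearman's rho was 0.940. With the replicate block there were 2358 calls, 2355 of them shared, and the block changed no other count by over 1.5 times. Over 232 named genes and 3371 alternative values no direction turned, and 4 values lost their call, of Hoxa10 (0.998 and 0.962 without tail or DRG replicate 3) and Nanog (0.914 with thinned counts, 0.897 without DRG replicate 2). Depth limits the low genes: 3 counts stand for 0.133 to 0.294 cpm a library.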

Other observations

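Axon guidance genes leaned to the tail side, with 22 of 58 higher there and 4 higher in DRG pNSCs (median 0.62). Rgma, a repulsive guidance molecule, had 502, 507 and 498 cpm in tail and 116, 110 and 116 in DRG libraries (2.11 ± 0.0254, adjusted p 3.47e-164), and the repellent Slit1 had 45.9 ± 0.441 against 6.87 ± 0.522 cpm (2.71 ± 0.0791). Slit3 had 43, 49 and 30 counts against none. The 4 genes higher in DRG pNSCs were the semaphorins Sema3c, Sema3d and Sema3e and the netrin receptor Unc5a, so no other semaphorin of the list passed on that side. Ephrins and their receptors gave 10 of these genes, Ephb1 at 1.81 ± 0.0670 among them, all higher in tail. Of 33 cadherins, integrins and laminins 11 were higher in tail and Cdh19, Itga8 and Lamb3 in DRG pNSCs. Itga2, a collagen receptor, had 39.2 ± 0.636 against 0.434 ± 0.248 cpm (6.46 ± 0.153), and Itga7, a laminin receptor, was at 2.37 ± 0.0573.

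Ion channels and transmitter receptors lay mostly on the DRG side, 15 of 47 higher there against 5 in tail (median -0.55). Grm3, a glutamate receptor of glia and neurons, had 1.11, 1.02 and 0.761 cpm in tail and 37.8, 37.9 and 34.4 in DRG libraries (-5.25 ± 0.117, 2.75e-110), near the 50.4 cpm of brain NSCs. Among NMDA receptor subunits Grin2a was higher in DRG pNSCs (0.403 ± 0.134 against 8.86 ± 0.725 cpm, -4.44 ± 0.212) and Grin2b higher in tail (7.96 ± 0.595 against 0.759 ± 0.269 cpm, 3.34 ± 0.211). The other large differences on the DRG side were those of Clic5, a chloride channel protein (-6.13 ± 0.178), Pcsk1, which cleaves prohormones (-5.33 ± 0.129), Lnx1, a ubiquitin ligase that binds Numb (-5.30 ± 0.166), and Pcdhga12, a clustered protocadherin that overlaps other Pcdhga genes on the same strand (-4.55 ± 0.143).

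Markers of mature cell types differed by list, and those of astrocytes and sensory neurons leaned to the tail side. Of 7 tested astrocyte markers 3 were higher in tail and 1 higher in DRG pNSCs, with sums of 1325 to 1331 and 797 to 820 cpm in turn. Gfap, the filament of astrocytes, had 21.7 ± 0.445 against 0.792 ± 0.279 cpm (4.72 ± 0.160) and Aldh1l1, also of astrocytes, 10.8 ± 0.114 against 115 ± 4.49 (-3.43 ± 0.0522), with 964 cpm in brain NSCs. Of 9 neuron markers Dcx (2.47 ± 0.106) and Rbfox3 (4.35 ± 0.225) were higher in tail and Map2 and Syt1 higher in DRG pNSCs. Of 5 tested sensory neuron markers 4 were higher in tail and none in DRG pNSCs, with sums of 608 to 629 and 248 to 264 cpm in turn. P2rx3, an ATP receptor of sensory neurons, had 38.2 ± 2.83 cpm in tail and 0.609 ± 0.142 in DRG pNSCs (5.92 ± 0.145), and Ntrk3 was at 1.84 ± 0.0428. Of the oligodendrocyte lineage Pdgfra (1.52 ± 0.0694) and Sox10 were higher in tail and Cspg4 (-1.19 ± 0.0299) and Cnp higher in DRG pNSCs. Hydin, a protein of motile cilia, had 0.875 ± 0.424 against 13.0 ± 1.48 cpm (-3.92 ± 0.166), while Foxj1, which drives those cilia, did not pass (-0.01).

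Of 34 genes of EGF and FGF signalling 6 were higher in tail and 7 in DRG pNSCs: Egfr, the receptor of the EGF in the medium, had 752 ± 12.4 against 360 ± 5.75 cpm (1.04 ± 0.0196), Fgfr2 64.9 ± 1.08 against 13.2 ± 0.782 (2.27 ± 0.0622), and the ligand Areg 0.344 ± 0.0603 against 5.55 ± 1.05 (-4.01 ± 0.251). Of 22 MHC class I and interferon genes 7 were higher in DRG pNSCs, Ifit2 with 5.78 ± 0.916 against 43.6 ± 1.50 cpm (-2.93 ± 0.0773), and Irf7, Bst2 and Usp18 were higher in tail. Of 3 tested pluripotency genes Klf4 (28.6 ± 0.381 against 4.71 ± 0.283 cpm, 2.58 ± 0.0973) and Nanog (24 to 32 counts against 5 to 8 a library, 1.05 ± 0.334) were higher in tail, and Nanog fell under the limit without DRG replicate 2 (0.897) and with thinned counts (0.914).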
